A study of Mus musculus with 32 samples.

Results

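Major histocompatibility complex (MHC) class II molecules are the surface receptors with which antigen-presenting cells show peptides to helper T cells, and 7 of their genes were examined among the 41388 genes of RNA sequencing tables from cultured mouse chondrocytes. The 7 are H2-Ab1, H2-Aa, H2-Eb1, Cd74, H2-DMa, H2-DMb1 and Ciita. They were selected as one pathway, and H2-Ab1 was chosen by its measured difference between the strains, so its strain values are given below as a description without a test. All 7 passed the filter on low counts that left 16136 genes.

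The cells were primary chondrocytes of femoral-head cartilage from 2 inbred mouse strains, LG/J and SM/J, taken at postnatal day 21, grown for 4 days in medium with 10% fetal bovine serum and collected without passaging. There were 8 libraries each from LG/J females, LG/J males, SM/J females and SM/J males, 32 in all. The labels name no transgene or treatment, and they do not say whether libraries of a group came from separate animals or cultures. The p-values here cover only the spread among the sequenced libraries.

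As background, an alpha and a beta chain form each class II molecule: H2-Aa and H2-Ab1 encode the chains of the A molecule, and H2-Eb1 encodes the beta chain of the E molecule. The invariant chain, encoded by Cd74, holds the pair together and keeps its groove closed until the endosome, where cathepsins degrade it and the H2-DM molecule, a pair of H2-DMa and H2-DMb chains, exchanges the remaining fragment for peptide. Ciita encodes the class II transactivator, which switches these genes on together by docking on the RFX, NF-Y and CREB proteins bound at their promoters. In cartilage, as in most tissues, class II expression is known mainly from macrophages and other antigen-presenting cells, and interferon gamma can induce it in other cell types through Ciita.

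In GRCm38, 5 of the genes lie in the MHC on chromosome 17: H2-DMa (ENSMUSG00000037649) at 34135182 to 34139101, H2-DMb1 (ENSMUSG00000079547) at 34153072 to 34160230, H2-Ab1 (ENSMUSG00000073421) at 34263209 to 34269418 and H2-Eb1 (ENSMUSG00000060586) at 34305877 to 34316199 on the plus strand, with H2-Aa (ENSMUSG00000036594) at 34282744 to 34287827 on the minus strand. Ciita (ENSMUSG00000022504) lies on chromosome 16 at 10488178 to 10527564, and the position of Cd74 is given with its values. These are the outer bounds of the exons over which reads were counted. H2-Eb1 overlaps Gm20513 and Ciita overlaps Dexi, both on the opposite strand, and whether counting used the strand is not given in the sources used here, so reads of the partners may not be told apart.

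A pair of short elements shared by class II promoters is shown because these are where RFX (X box) and NF-Y (Y box) bind, the step that Ciita acts on. The letters come from the RefSeq promoter windows of GRCm38.p6, which run from 250 bases before to 50 bases after a gene's start, and capitals mark the letters GNAACT at the X box and TGATTGG at the Y box.
H2-Aa: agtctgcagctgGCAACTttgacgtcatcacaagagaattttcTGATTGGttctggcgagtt
H2-Eb1: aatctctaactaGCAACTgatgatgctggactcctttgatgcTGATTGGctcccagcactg
The first runs over chr17:34287855-34287916 on the minus strand and the second over chr17:34305764-34305824 on the plus strand. The capitals are 25 bases apart in H2-Aa and 24 bases apart in H2-Eb1. H2-DMb1 holds the same pair of letters, also 25 bases apart, before its RefSeq start. The 2 windows of H2-DMa hold the pair on neither strand, and their starts lie 12350 and 9664 bases upstream of the start in the count tables, so they cover other sequence than the counted gene's start. These letters were chosen after reading the sequences. Searched on both strands, with 10 to 40 bases between them and no overlap, the pair is in 90 of 32851 promoter windows (0.274%), TGATTGG alone in 7.82% and GNAACT alone in 42.8%.

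Levels are given in CPM, read counts scaled to one common library total, after adjustment with trimmed means of M values (TMM), which moves the libraries to a common baseline. Differences are log2 values of LG/J minus SM/J with their standard error, from edgeR's quasi-likelihood test over all 16136 genes kept, and a gene is called changed at a Benjamini-Hochberg adjusted p under 0.05. Libraries held 15840330 to 25571598 counts. Some libraries stood apart. LG/J female 1 and LG/J male 1 had Il6 at 51.8 and 32.1 CPM before TMM scaling, against at most 0.957 CPM in the other 14 LG/J libraries, and at most 54.7 CPM of Acan, a cartilage matrix gene, against at least 1210 CPM. In 6 libraries (LG/J females 4 and 5, SM/J females 3 and 4, SM/J males 2 and 3) Xist and Ddx3y were both above 10 CPM, so transcripts of both sexes were present; these are the 6 mixed-sex libraries below. Of 112 pairs of libraries within groups, 6 differed by only 3.92 to 4.79 times sampling noise, where the median pair differed by 16.9 times and the next closest by 5.84 times.

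H2-Ab1, the A beta chain, was a moderately abundant transcript in LG/J cultures and scarce in SM/J cultures. Its lowest, median and highest values were 22.05, 34.5 and 62.7 CPM in the 16 LG/J libraries, against 0.183, 1.41 and 7.22 CPM in the 16 SM/J libraries. The groups did not overlap: the lowest LG/J library, male 4, was above the highest SM/J library, female 2. The highest LG/J values, 62.7 and 60.0 CPM, were in male 1 and female 1, the libraries with high Il6 and low Acan. Before TMM scaling these were at 50.7 and 48.6 CPM, below LG/J female 8 at 53.3 CPM. In reads, H2-Ab1 had 502 to 1128 in each LG/J library and 4 to 165 in each SM/J library. The difference was 4.35 ± 0.38 on the log2 scale or 20.5-fold. Female means were 39.5 ± 11.2 CPM (LG/J) and 2.06 ± 2.47 CPM (SM/J), a difference of 4.26 ± 0.53. Male means were 40.5 ± 14.1 CPM (LG/J) and 1.84 ± 1.26 CPM (SM/J), a difference of 4.45 ± 0.54 (SD, n = 8 each). Under the other settings tried, those that left out libraries included, it was 4.15 to 4.69. Reads were aligned to GRCm38, the genome of another strain, C57BL/6J, and whether reads of both strains' class II alleles, which are highly polymorphic in mice, aligned equally well was not tested.

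The partner chain of H2-Ab1 did not share its pattern. H2-Aa, the A alpha chain, had a lowest, median and highest value of 0, 0.284 and 8.05 CPM in LG/J libraries, against 0, 2.04 and 12.9 CPM in SM/J libraries. The strains overlapped over nearly their whole ranges, and the highest library of each was LG/J male 6 and SM/J female 2. H2-Aa was at 0 reads in 2 LG/J libraries and in 1 SM/J library, where a count of 0 allows up to 0.146, 0.139 and 0.117 CPM (LG/J female 2, LG/J male 3 and SM/J female 4; 3 counts, counting error only). The mean was 1.08 ± 1.97 CPM over the LG/J libraries and 3.14 ± 3.53 CPM over the SM/J libraries (SD, n = 16 for both), a difference of -1.67 ± 0.68 that did not pass the edgeR test (adjusted p = 0.0649). That call rests on few libraries: without LG/J male 6 the difference was -2.33 (adjusted p = 0.00795), without LG/J female 5 it was -1.97 (adjusted p = 0.0380), and without SM/J female 4 it was -1.77 (adjusted p = 0.0421), each by edgeR's quasi-likelihood test. It passed as well with DESeq2 (-1.69, adjusted p = 0.0495), by edgeR without the 6 mixed-sex libraries (-2.45, adjusted p = 0.0188) and without LG/J male 6 and SM/J female 2 (-1.97, adjusted p = 0.0202).

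The balance between both chains of the A molecule therefore differed between the strains by construction of the H2-Ab1 choice, and is given as a description. Per kilobase of transcript, in the deposited RPKM, H2-Ab1 averaged 24.3 ± 6.48 and H2-Aa 0.612 ± 1.16 in LG/J, while H2-Ab1 averaged 1.18 ± 1.14 and H2-Aa 1.67 ± 1.86 in SM/J (SD, n = 16 each). Counted within libraries, H2-Ab1 had 5.73 to 1000 times as many reads as H2-Aa in the 14 LG/J libraries with an H2-Aa read. In the 15 SM/J libraries with an H2-Aa read the ratio was 0.355 to 3.5, and it was over 1 in 4 of them. The transcript lengths used for counting are 1637 bases for H2-Ab1 and 1874 bases for H2-Aa, so length accounts for little of these ratios.

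H2-Eb1, the E beta chain, was scarce in both strains and lower in LG/J. It had a lowest, median and highest value of 0.0446, 0.192 and 3.35 CPM in LG/J libraries, against 0.331, 1.10 and 5.38 CPM in SM/J libraries. In 10 of 16 LG/J libraries it was below every SM/J library, while LG/J male 6 was higher than all SM/J libraries but female 2. H2-Eb1 fell by 1.67 ± 0.53 on the log2 scale (adjusted p = 0.0172 by edgeR's quasi-likelihood test). H2-Aa and H2-Eb1 passed the count filter mainly through SM/J: the level it uses, 0.486 CPM, was reached in 7 LG/J and 11 SM/J libraries for H2-Aa, and in 4 LG/J and 11 SM/J libraries for H2-Eb1. H2-Ea-ps, the E alpha chain gene annotated as a pseudogene in the reference strain, fell with H2-Eb1, to a mean of 0.445 ± 0.696 CPM over the LG/J libraries, against 1.40 ± 1.33 CPM over the SM/J libraries (SD, n = 16 for both; -1.67 ± 0.61, adjusted p = 0.0376 by edgeR). Its median was under the filter level in LG/J (0.249 CPM) and above it in SM/J (1.34 CPM). H2-Aa, H2-Eb1 and H2-Ea-ps were thus kept mainly for their SM/J level, which limits what their strain tests show.

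Cd74, the invariant chain, on chromosome 18 at 60803848 to 60812646 (ENSMUSG00000024610), varied over 50-fold between libraries of one strain. Its lowest, median and highest values were 0.308, 3.37 and 81.2 CPM in LG/J libraries, against 1.57, 21.5 and 108 CPM in SM/J libraries. The strains overlapped, and 6 of 16 LG/J libraries lay below every SM/J library. Leaving out the 2 top libraries, LG/J male 6 and SM/J female 2, the next highest library had 12.7 CPM among LG/J and 61.2 CPM among SM/J. Cd74 fell by 1.86 ± 0.64 on the log2 scale in LG/J (adjusted p = 0.0270 by edgeR's quasi-likelihood test). The call was lost without SM/J female 2 (-1.51, adjusted p = 0.0674) and with no filter on low counts (-1.88, adjusted p = 0.0549, edgeR).

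**Figure D1:**
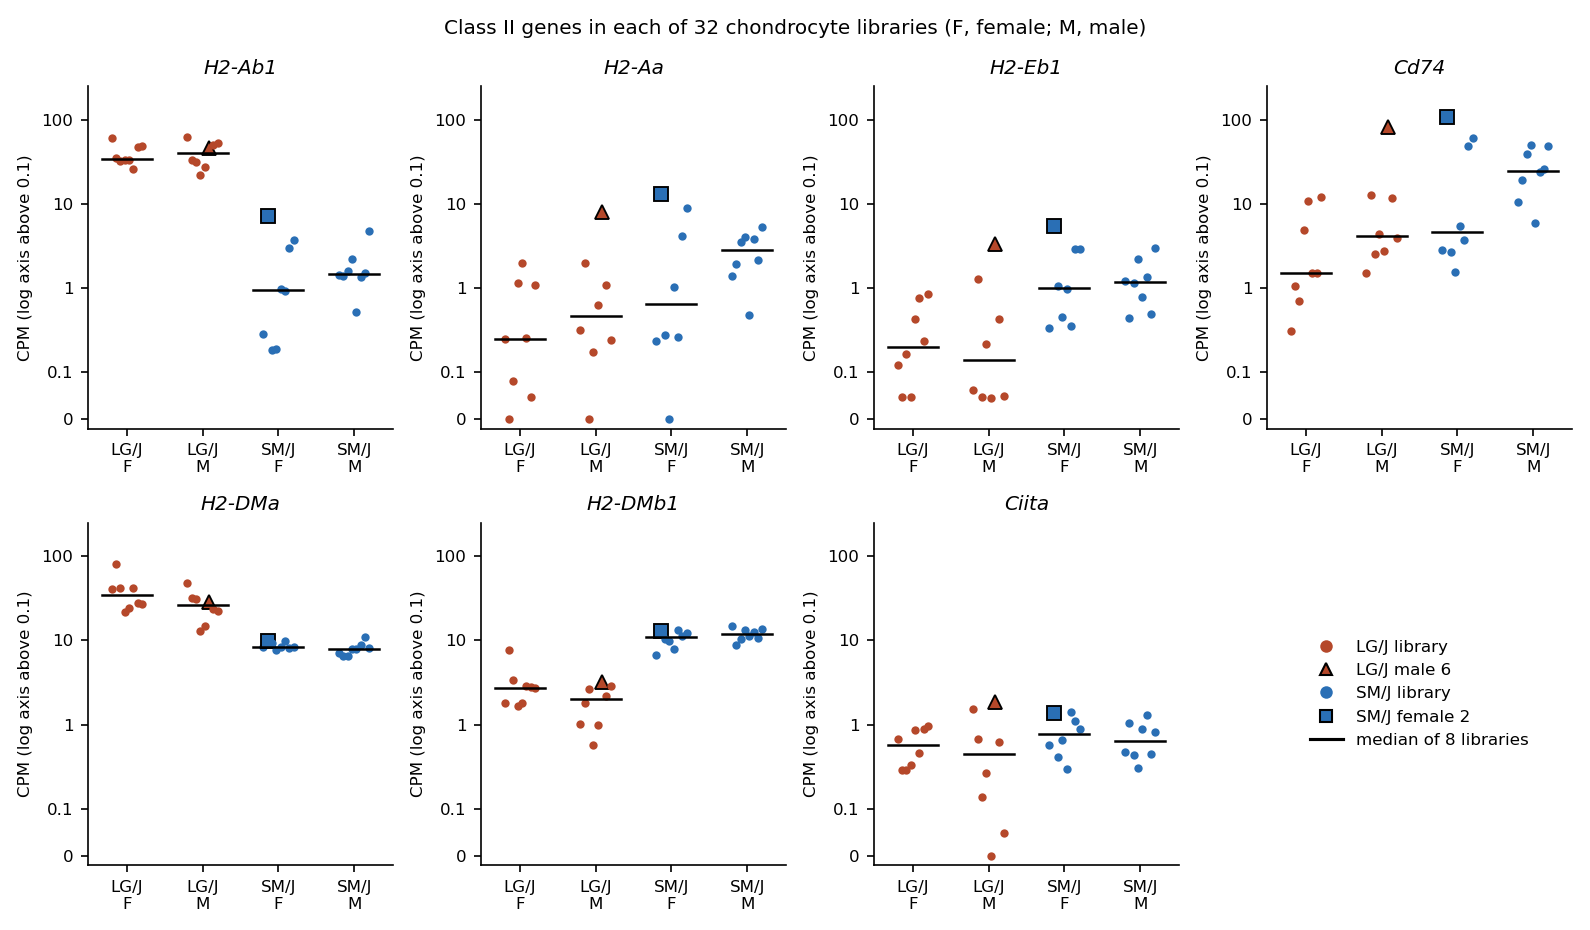
Level of each class II gene in CPM after TMM scaling (y axis, logarithmic above 0.1) in 32 libraries by strain and sex (x axis); points are libraries, lines are medians of 8, the triangle is LG/J male 6 and the square SM/J female 2. H2-Ab1 and H2-DMa are higher in every LG/J library than in any SM/J library, H2-DMb1 is lower in 15 of 16 LG/J libraries, and the other 4 overlap.

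The H2-DM pair, which loads peptide, was split between the strains. H2-DMa, its alpha chain, had a lowest, median and highest value of 13.0, 28.0 and 80.3 CPM in LG/J libraries, against 6.42, 8.21 and 11.1 CPM in SM/J libraries. The strains did not overlap, as for 2.62% of all genes tested in either direction and 1.36% with LG/J above SM/J. H2-DMa averaged 32.3 ± 16.1 CPM over the LG/J libraries and 8.32 ± 1.23 CPM over the SM/J libraries (SD, n = 16 for both) and rose by 1.93 ± 0.16 or 3.82-fold (adjusted p = 2.70e-11 by edgeR's quasi-likelihood test). The spread among libraries was also wider in LG/J, with LG/J female 2 far above the rest at 80.3 CPM, against 47.7 CPM in the next.

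H2-DMb1, a beta chain of the same molecule, went the other way. It had a lowest, median and highest value of 0.571, 2.41 and 7.61 CPM in LG/J libraries, against 6.72, 11.2 and 14.7 CPM in SM/J libraries. Every LG/J library except female 2 was below every SM/J library. H2-DMb1 fell by 2.20 ± 0.21, that is 4.61-fold (adjusted p = 3.01e-10 by edgeR's quasi-likelihood test). H2-DMa had 7.80 to 47.2 times as many reads as H2-DMb1 in LG/J libraries and 0.473 to 1.23 times as many in SM/J libraries, so the within-library ratio did not overlap.

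H2-DMb1 has a near-identical neighbour, H2-DMb2 (ENSMUSG00000037548, chromosome 17, 34143307 to 34151553), which encodes a second beta chain, and 95.7% of bases match over 1081 aligned bases of the transcripts. Reads may therefore be split between the 2 copies. H2-DMb2 fell by less, with a mean of 5.31 ± 2.96 CPM over the LG/J libraries against 7.99 ± 1.58 CPM over the SM/J libraries (SD, n = 16 for both; -0.62 ± 0.18, adjusted p = 0.00738 by edgeR). With the reads of both copies added, an alternative chosen after seeing the data, the beta chains were at 7.80 ± 4.50 CPM over the LG/J libraries and 19.2 ± 3.74 CPM over the SM/J libraries (SD, n = 16 for both). The difference of the sum was -1.33 (adjusted p = 4.83e-07 by edgeR), in the same direction as H2-DMb1 alone and smaller. H2-DMa had 3.04 to 11.3 times the reads of the sum in LG/J libraries and 0.283 to 0.740 times in SM/J libraries.

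Ciita, the switch of the whole set, was at the edge of detection in both strains. It had a lowest, median and highest value of 0, 0.539 and 1.84 CPM in LG/J libraries, against 0.298, 0.732 and 1.41 CPM in SM/J libraries, that is 0 to 45 reads and 6 to 32 reads per library. The strains overlapped and LG/J male 6 was the highest of all. LG/J male 5 had no read, which allows up to 0.135 CPM. The difference of -0.33 ± 0.38 (95% interval -1.07 to 0.41) did not pass the edgeR test (adjusted p = 0.552), and the interval holds a 2-fold lower level in LG/J but not a 2-fold higher one.

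Of the 6 genes other than H2-Ab1, 4 were called in the strain comparison, 1 higher and 3 lower in LG/J, where 29.9% of all genes tested were called, 16.4% higher and 13.5% lower. H2-Eb1, among the 3 lower, passed the count filter mainly through SM/J, where it was higher. Within females 4 of 6 were called (background 13.4%), and within males 2 of 6 (background 22.3%). H2-DMa and H2-DMb1 were called in both sexes: H2-DMa rose by 2.13 ± 0.23 in females and by 1.74 ± 0.23 in males, and H2-DMb1 fell by 1.78 ± 0.29 in females and by 2.63 ± 0.30 in males (highest adjusted p = 2.49e-05 by edgeR). Cd74 and H2-Eb1 were called in females only by a narrow margin, at -2.84 ± 0.94 (adjusted p = 0.0418) and -2.42 ± 0.78 (adjusted p = 0.0348), and each lost that call when any of several single libraries was left out, with adjusted p up to 0.140 for Cd74 and 0.110 for H2-Eb1, both without SM/J female 2. Cd74 also lost it without LG/J female 1 and male 1 together (-2.68, adjusted p = 0.0570, edgeR). Without the 6 mixed-sex libraries, H2-Eb1 in females lost its call (-2.56, adjusted p = 0.0862) and H2-Aa in females, not called otherwise at an adjusted p of 0.103, passed (-4.05, adjusted p = 0.0296, edgeR). In males Cd74 and H2-Eb1 were at -0.88 ± 0.88 and -0.92 ± 0.73 and not called (adjusted p = 0.528 and 0.413, edgeR), and these values rest on LG/J male 6. Without it H2-Eb1 in males was at -2.08 (adjusted p = 0.0377) and Cd74 at -2.29 (adjusted p = 0.0554), and without SM/J female 2 as well Cd74 was at -2.29 with an adjusted p of 0.0441, by edgeR. The strain difference was not shown to differ between the sexes: 0 of 7 genes were called in the interaction of strain and sex, with a background of 0.0062% or 1 gene (1345 genes at an unadjusted p under 0.05). Among the 7, only H2-DMb1 was at an unadjusted p under 0.05 there, at -0.85 ± 0.40 (unadjusted p = 0.0417, adjusted p = 0.575 by edgeR).

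Sex itself moved none of the 7 past the threshold. By edgeR, 0 of 7 were called between males and females over both strains (background 3.46%), 0 of 7 within LG/J (background 0.0496%) and 0 of 7 within SM/J (background 5.76%). At an unadjusted p under 0.05 were H2-DMa over both strains (-0.33 ± 0.16) and Cd74 (1.89 ± 0.92), H2-DMa (-0.52 ± 0.22) and H2-DMb1 (-0.68 ± 0.29) within LG/J. With 6 libraries holding transcripts of both sexes, sex differences are measured with less contrast than the labels give.

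Transcripts of macrophages, cells which carry class II molecules, were present in the cultures in varying amount. A list of 20 macrophage genes, all in the tables and 17 past the filter, had a lowest, median and highest summed level of 23.2, 69.4 and 1086 CPM in LG/J libraries, against 57.0, 173 and 1116 CPM in SM/J libraries. Of the 17, 5 were lower in LG/J and 0 higher, where 13.5% of all genes tested were lower and 16.4% higher. The median difference was -1.02 against 0.02 over all genes. Mpeg1 (-3.04 ± 0.72, adjusted p = 0.00148), Fcgr1 (-2.68 ± 0.68, adjusted p = 0.00313) and Fcgr3 (-1.85 ± 0.64, adjusted p = 0.0283) had the smallest p by edgeR. Mpeg1 and Fcgr1 averaged 0.980 and 0.562 CPM over LG/J libraries, with 12.6 and 6.87 CPM in LG/J male 6. Over SM/J libraries they averaged 4.42 and 2.03 CPM. Both were thus kept by the count filter mainly for their SM/J level, which limits what their strain tests show. The top libraries were LG/J male 6 and SM/J female 2. The markers C1qb, C1qc and Cd163 were below the filter. In these bulk libraries, fewer macrophages and less of the RNA per macrophage cannot be told apart. The macrophage score used below is the mean log2 CPM of the 20 genes in a library, centred over the 32 libraries, so that a unit of score is a doubling of the list on average. It ran from -1.83 to 3.70 in LG/J with a median of -0.90, and from -1.05 to 3.33 in SM/J with a median of 0.63.

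Among libraries of the same strain and sex, 4 of the 7 genes rose with the score by edgeR's quasi-likelihood test, where 2.19% of all genes were called. Cd74 rose most, by 1.10 ± 0.17 per unit of score (adjusted p = 3.57e-05). H2-Aa rose by 1.09 ± 0.20 (adjusted p = 5.34e-04), H2-Eb1 by 0.71 ± 0.15 (adjusted p = 0.00291) and H2-Ab1 by 0.53 ± 0.13 (adjusted p = 0.0142). For scale only, the 17 macrophage genes past the filter had a median of 1.21 per unit. They are part of the score, so their rise follows from how it is built and is not a result. H2-Ea-ps, which is not in the score, rose by 1.06 ± 0.17 (adjusted p = 4.22e-05). The 2 H2-DM chains and Ciita did not pass, at -0.05 ± 0.07 for H2-DMa, 0.09 ± 0.08 for H2-DMb1 and 0.32 ± 0.13 for Ciita (adjusted p = 0.871, 0.759 and 0.352).

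These slopes lean on the 2 top libraries. Without both LG/J male 6 and SM/J female 2, the slopes of Cd74 and H2-Ab1 were still called, while H2-Aa was at 1.37 (adjusted p = 0.0817, edgeR) and H2-Eb1 at 0.61 (adjusted p = 0.420). H2-Eb1 lost its call without LG/J male 6 alone (0.66, adjusted p = 0.154) and H2-Ab1 without SM/J female 2 alone (0.40, adjusted p = 0.247). With a core list of 5 macrophage genes in place of 20, H2-Ab1 was at 0.42 (adjusted p = 0.111), and with the close pairs of libraries summed it was at 0.51 (adjusted p = 0.0595), by the same edgeR test.

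**Figure D2:**
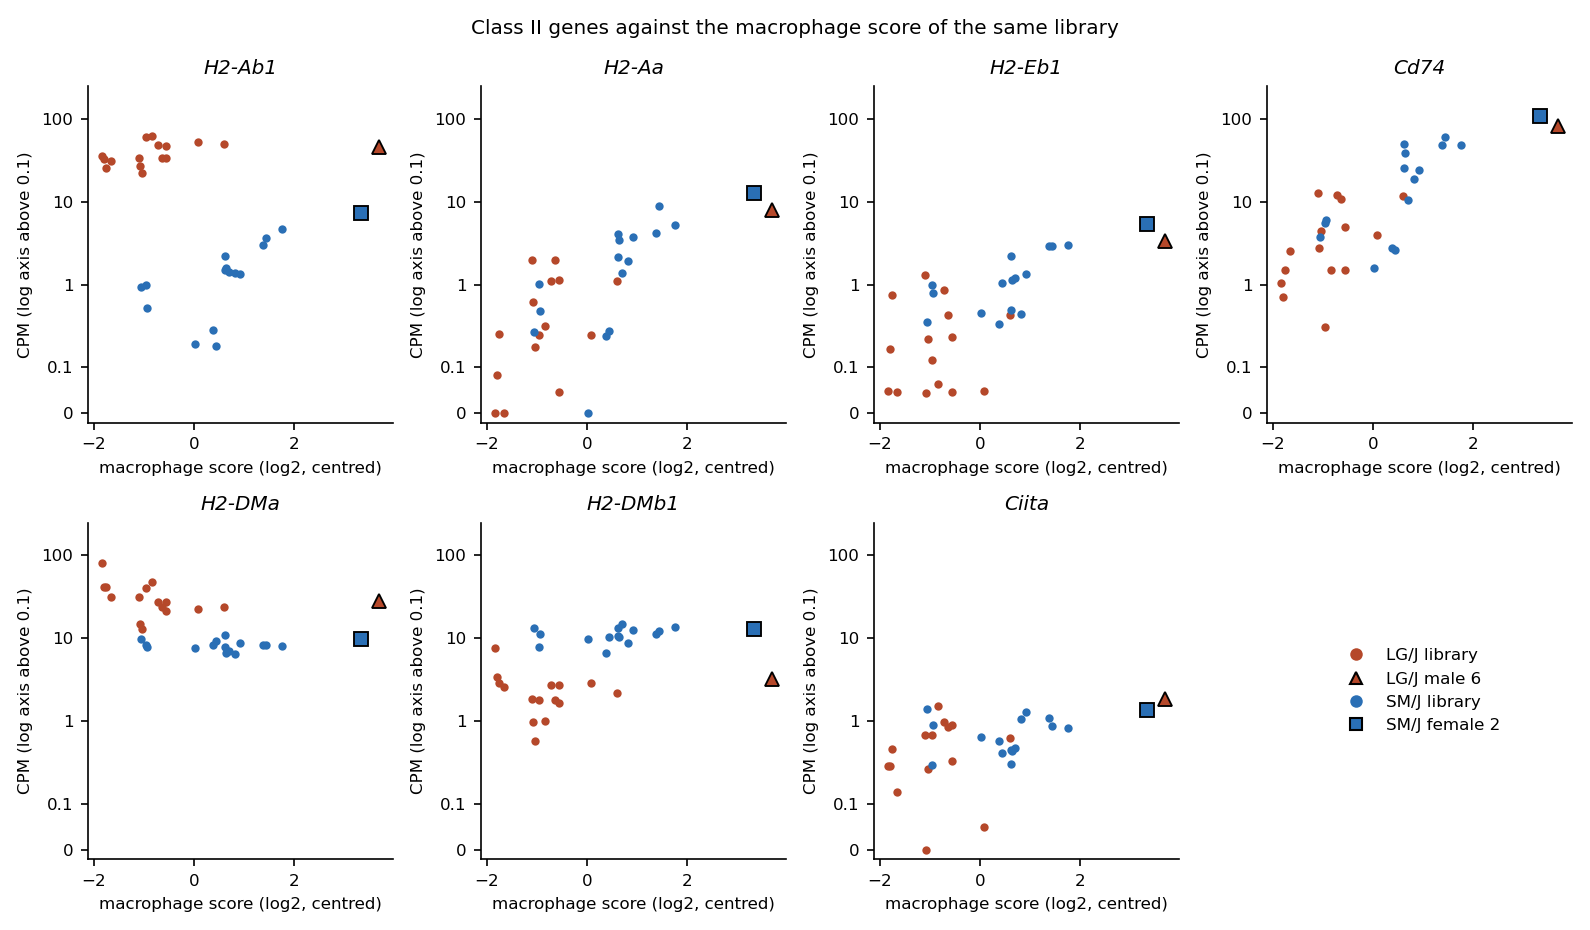
Level of each class II gene in CPM (y axis, logarithmic above 0.1) against the macrophage score of the same library (x axis, log2 units); each point is a library, red for LG/J and blue for SM/J, with LG/J male 6 as a triangle and SM/J female 2 as a square. Cd74, H2-Aa and H2-Eb1 of both strains overlap, with LG/J male 6 and SM/J female 2 at the upper right, H2-Ab1 rises in SM/J from below 1 CPM but stays above 20 CPM in LG/J at every score, and the H2-DM genes run in parallel bands.

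The slope was also fitted in each strain. Within LG/J, 1 of 7 genes was called (background 1.56%), Cd74 at 0.93 ± 0.20 (adjusted p = 0.00660 by edgeR). Within SM/J, 3 of 7 were called (background 1.59%): Cd74 at 1.28 ± 0.27 (adjusted p = 0.00682), H2-Aa at 1.29 ± 0.32 (adjusted p = 0.0252) and H2-Ab1 at 0.91 ± 0.15 (adjusted p = 3.07e-04). The Cd74 slope in LG/J lost its call without LG/J male 6 (1.14, adjusted p = 0.353), and the slopes of Cd74 and H2-Aa in SM/J lost theirs without SM/J female 2 (1.38, adjusted p = 0.0971, and 1.42, adjusted p = 0.269). H2-Aa in SM/J also lost its call without SM/J female 6 (1.25, adjusted p = 0.104) or male 5 (1.26, adjusted p = 0.0611), and without the 6 mixed-sex libraries (1.19, adjusted p = 0.0552). H2-Eb1 was not called in LG/J (0.65 ± 0.19, adjusted p = 0.123), and without LG/J male 6 its slope there was 0.02 (adjusted p = 0.992). In LG/J, H2-Aa passed without the mixed-sex libraries (0.81, adjusted p = 0.0434) and with close pairs summed (0.86, adjusted p = 0.0360), and Ciita passed without LG/J female 1 and male 1 (0.62, adjusted p = 0.0405), by edgeR.

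H2-Ab1 had a slope of 0.14 ± 0.13 per unit in LG/J (adjusted p = 0.908), against 0.91 ± 0.15 in SM/J. The difference between these slopes was -0.76 ± 0.22 with an unadjusted p of 0.00164 and an adjusted p of 1.00 by edgeR, so it did not pass. No gene of the 16136 passed this comparison (background 0%), with 435 at an unadjusted p under 0.05. In SM/J, where the baseline is low, the lowest H2-Ab1 values of 0.183, 0.191 and 0.284 CPM were in females 3, 4 and 1, with scores of 0.44, 0.03 and 0.38, and not at the lowest scores. Females 3 and 4 are among the libraries with transcripts of both sexes. They are also among the 6 closest pairs, at 4.43 times sampling noise, and whether they are separate cultures is not known.

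Correlations of log2 CPM with the score were also taken within each strain over 16 libraries, with 14 relations adjusted together (permutation tests in both directions). In SM/J, Cd74 (Pearson r = 0.747, adjusted p = 0.00453; Spearman rho = 0.785, adjusted p = 0.00280), H2-Eb1 (r = 0.738; rho = 0.771), H2-Aa (r = 0.728; rho = 0.862) and H2-Ab1 (r = 0.700; rho = 0.803) passed by both measures. In LG/J, Cd74 (r = 0.742, adjusted p = 0.00468; rho = 0.538, adjusted p = 0.0750) and H2-Aa (r = 0.711; rho = 0.541) passed by Pearson's r, and 0 of 7 genes by rho. With the 2 libraries farthest from the median score left out, 0 of the 14 relations passed by a permutation test. Then r was 0.674 for Cd74 and 0.644 for H2-Ab1 in SM/J (adjusted p = 0.0733 each), and 0.415 for Cd74 in LG/J (adjusted p = 0.218). The LG/J calls by Pearson's r fell to 0 without LG/J male 6 alone. In SM/J, 4 genes stayed called by Pearson's r whichever 1 library was left out.

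LG/J male 6 and SM/J female 2, the libraries with the highest macrophage score of each strain, can be set side by side with 1 library each and no test. They had 2558 and 2654 reads of Adgre1 and 3897 and 4068 reads of Csf1r, both surface markers of macrophages. The rest of the macrophage list was mixed: of its 20 genes, 10 were within 1.5-fold in CPM, 7 were higher beyond that in LG/J male 6, among them Ms4a7 (769 and 112 reads) and Aif1 (323 and 58 reads), and 3 were higher in SM/J female 2, Cd14 (995 and 4051 reads), Mpeg1 (308 and 589 reads) and Fcgr1 (168 and 295 reads). Among the class II genes, CPM differed by 1.33-fold for Cd74 (1987 reads in LG/J male 6 and 2472 in SM/J female 2), 1.36-fold for Ciita (45 and 31), 1.60-fold for H2-Aa (197 and 295), 1.61-fold for H2-Eb1 (82 and 123) and 1.68-fold for H2-Ea-ps (70 and 110). The gap was wider for H2-Ab1, at 6.39-fold with 1128 reads in LG/J male 6 and 165 in SM/J female 2, for H2-DMb1, at 4.02-fold (79 and 297), and for H2-DMa, at 2.87-fold (694 and 226). LG/J male 6, with 46.1 CPM of H2-Ab1, lay within the range of the other LG/J libraries, whose macrophage scores were all lower.

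**Figure D3:**
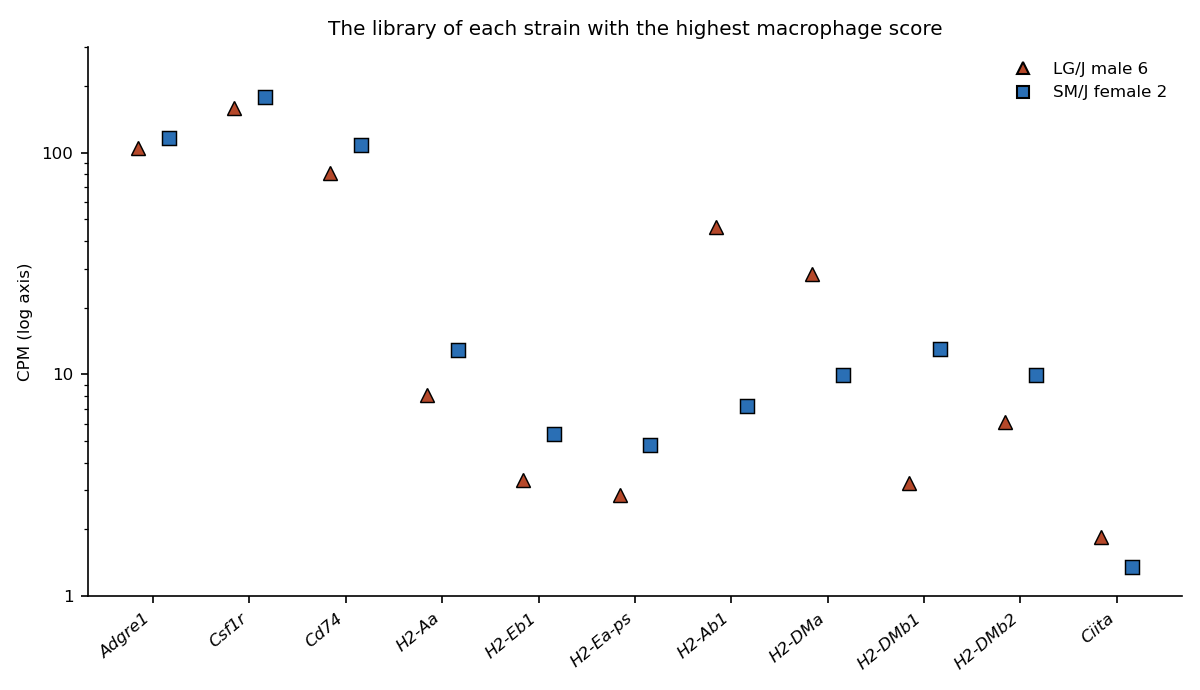
CPM after TMM scaling (y axis, logarithmic) of 2 macrophage markers, the class II genes and 2 relatives (x axis) in the LG/J library (triangle, male 6) and the SM/J library (square, female 2) with the highest macrophage score; single libraries, no error. Adgre1, Csf1r and Cd74 differ by less than 1.5-fold between the 2 libraries, while H2-Ab1 and H2-DMa are higher in LG/J male 6 and H2-DMb1 is higher in SM/J female 2.

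Set against Cd74 rather than the library total, the A alpha and E chains differed by less between the strains than H2-Ab1 did, as a description with no test. Summed over 16 libraries, H2-Aa had 11.14 reads for every 100 Cd74 reads in LG/J and 11.005 in SM/J. H2-Eb1 had 5.17 and H2-Ea-ps 4.47 in LG/J, against 5.51 and 4.89 in SM/J. H2-Ab1 had 374 reads per 100 Cd74 reads in LG/J and 6.88 in SM/J, beside the H2-Aa figures of the same strains. LG/J male 6 held 1987 of the 3464 Cd74 reads of LG/J. Without it, an alternative chosen after seeing the data, H2-Ab1 had 801 reads per 100 Cd74 reads in LG/J, H2-Aa 12.8, H2-Eb1 6.57 and H2-Ea-ps 5.75. Over single libraries the median was 1099.9 in LG/J and 7.08 in SM/J for H2-Ab1, and 10.8 in LG/J and 9.54 in SM/J for H2-Aa.

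With the macrophage score as a covariate, the strain difference of the same genes was estimated at equal score. The fit uses 1 slope for both strains, and the scores overlap only in part (median -0.90 in LG/J and 0.63 in SM/J). These values therefore lean on that slope and are not a comparison of matched libraries. Of the 6 genes other than H2-Ab1, 2 were called (background 26.4%): H2-DMa at 1.87 ± 0.18 (adjusted p = 1.31e-09) and H2-DMb1 at -2.09 ± 0.23 (adjusted p = 1.41e-08), by edgeR's quasi-likelihood test. Their values moved by less than their standard errors. Cd74 was at -0.49 ± 0.51 (95% interval -1.49 to 0.51, adjusted p = 0.523), H2-Aa at -0.26 ± 0.62 (-1.47 to 0.94, adjusted p = 0.796), H2-Eb1 at -0.86 ± 0.47 (-1.78 to 0.07, adjusted p = 0.188) and Ciita at -0.04 ± 0.36 (-0.75 to 0.67, adjusted p = 0.951). The intervals of Cd74, H2-Aa and H2-Eb1 still hold differences of over 2-fold, so equal levels are not shown. H2-Aa reversed to 0.22 (adjusted p = 0.870) without LG/J male 6 and SM/J female 2, and H2-Eb1 passed at -1.13 (adjusted p = 0.0309, edgeR) without LG/J male 2. H2-Ab1, as a description, was at 5.34 ± 0.36, larger than its difference without the score. That value depends on the common slope, whereas the H2-Ab1 slopes fitted by strain were 0.14 in LG/J and 0.91 in SM/J.

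**Figure D4:**
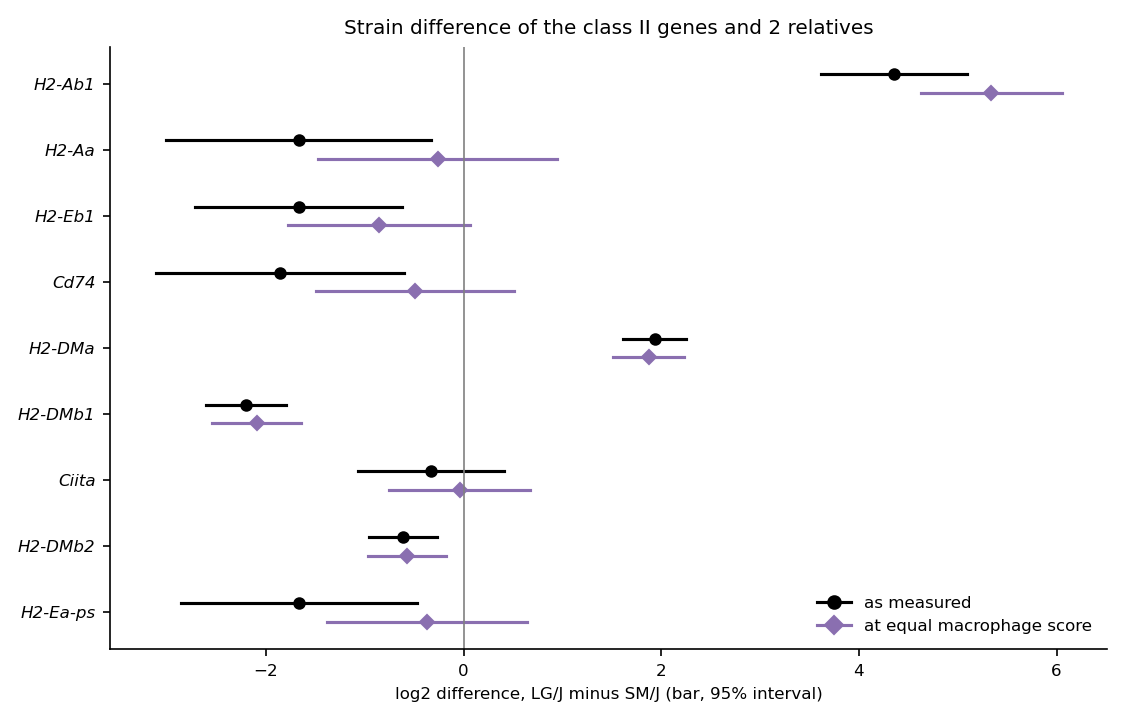
Log2 difference of LG/J minus SM/J (x axis) with its 95% interval for the 7 class II genes and 2 relatives, as measured (circles) and at equal macrophage score (diamonds). The values of Cd74, H2-Aa, H2-Eb1 and H2-Ea-ps move towards 0 at equal score, those of H2-DMa, H2-DMb1 and H2-DMb2 hardly move, and H2-Ab1 moves from 4.35 to 5.34.

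Upstream of the class II genes, the factors that bind their promoters differed between the strains by at most 0.38 on the log2 scale. For the strain counts below, 29.9% of all genes tested were called, 16.4% higher and 13.5% lower in LG/J. Of 7 genes for the RFX, NF-Y and CREB proteins, 2 were higher and 0 lower in LG/J (median 0.03, against 0.02 over all genes): Creb1 (33.1 ± 3.43 CPM over LG/J libraries, 25.5 ± 4.26 CPM over SM/J libraries; 0.38 ± 0.07, adjusted p = 2.72e-05) and Nfya (0.27 ± 0.07, adjusted p = 0.00456), by edgeR. Rfx5, the DNA-binding subunit whose loss silences class II genes in people, was at 2.49 ± 0.81 CPM over LG/J libraries and 2.53 ± 1.16 CPM over SM/J libraries (SD, n = 16 for both). Of 11 genes of the route from interferon gamma to Ciita, 9 passed the filter, with 3 higher and 1 lower (median -0.07). Among them, Usf1 (0.36 ± 0.06, adjusted p = 3.75e-06) and the kinase Jak2 (0.31 ± 0.10, adjusted p = 0.0142) rose and the receptor chain Ifngr1 fell by 0.39 ± 0.06 (adjusted p = 2.28e-06), by edgeR. Ifng itself, the ligand, had at most 4 reads in an LG/J library and at most 1 in an SM/J library, and none of the genes in either list was called for the score.

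Among 9 measured genes that supply peptide to class II molecules or turn them over, 1 was higher and 3 were lower in LG/J (median -0.28). Over all genes tested, 16.4% were called higher and 13.5% lower. Lgmn, an asparaginyl endopeptidase of the lysosome, rose by 0.85 ± 0.13 (adjusted p = 2.66e-06), while the cathepsins Ctsl (-0.48 ± 0.09, adjusted p = 1.55e-04), Ctsh (-0.53 ± 0.15, adjusted p = 0.00677) and Ctss (-2.24 ± 0.69, adjusted p = 0.0133) fell, by edgeR. Ctss, the cathepsin that cuts the invariant chain in antigen-presenting cells, also rose with the macrophage score by 1.43 ± 0.14 per unit (adjusted p = 5.06e-09). Of 5 costimulatory genes, 1 was lower, Cd80 at -1.03 ± 0.33 (adjusted p = 0.0179), a ligand of CD28 on T cells, and Cd86 rose with the score by 0.77 ± 0.14 (adjusted p = 5.22e-04). Of 5 other class II genes measured, H2-Oa, H2-Ob and H2-Eb2 were below the filter with at most 5 reads in any library.

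Markers of other cells were measured as well, among them cells that can carry class II molecules. Over all genes tested, 29.9% were called between the strains, 16.4% higher and 13.5% lower in LG/J. Of 8 B cell genes, 2 passed the filter and 0 were called, and their sum ran from 0.526 to 6.25 CPM across LG/J libraries and from 0.982 to 2.68 CPM across SM/J libraries. Of 8 dendritic cell genes, 6 passed, with 1 higher (Zbtb46, 0.47 ± 0.14) and 3 lower (Itgax, Cd209a and Xcr1), and the sum was 4.45 to 11.7 CPM across LG/J libraries and 4.28 to 10.2 CPM across SM/J libraries. Itgax averaged 0.113 CPM over LG/J libraries, with at most 11 reads in any, and 0.593 CPM over SM/J libraries. It was thus kept mainly for its SM/J level, which limits what its strain test shows. The part of dendritic cells in the class II values was not tested. Of 6 T cell genes 1 was called, Lck, which was higher in LG/J, and of 5 endothelial genes 0 were called. The chondrocyte genes, by contrast, were abundant, with 9 of 9 past the filter and a sum of 1439 to 34427 CPM across LG/J libraries and 7714 to 24776 CPM across SM/J libraries, and 3 of 9 (Hapln1, Sox9 and Acan) were higher in LG/J.

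Along chromosome 17, 41 genes lie within 250 kb of H2-Ab1 and 17 of them passed the filter. Of the 12 that are not among the 7, 2 were higher in LG/J (Tap2, a subunit of the class I peptide transporter, 0.42 ± 0.15, and Brd2, 0.24 ± 0.05) and 3 were lower (Slc39a7, -0.84 ± 0.09, H2-DMb2 and H2-Ea-ps). Over all genes tested, 16.4% were called higher and 13.5% lower. Higher and lower genes alternated over short distances: H2-DMa, 128 kb before H2-Ab1, rose, while H2-DMb2 and H2-DMb1, 120 and 110 kb before it, fell, and H2-Eb1 and H2-Ea-ps, 42.7 and 79.7 kb after it, fell. Psmb8, Psmb9 and Tap1, which serve class I molecules and lie between H2-DMb1 and H2-Ab1, differed by 0.17, 0.17 and 0.06 and were not called (adjusted p = 0.832, 0.708 and 0.776, edgeR).

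**Figure D5:**
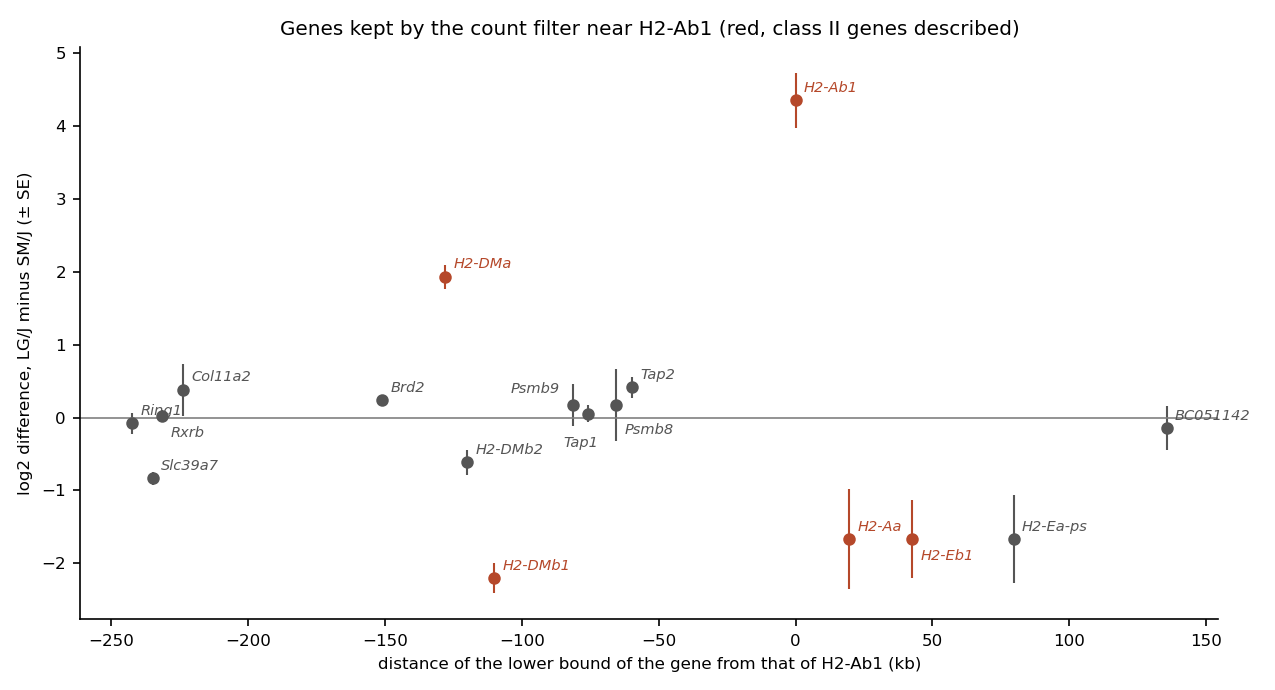
Log2 difference of LG/J minus SM/J with its standard error (y axis) for the 17 genes past the filter within 250 kb of H2-Ab1, by distance of the lower bound of the gene from that of H2-Ab1 (x axis, kb); red marks class II genes among the 7. H2-Ab1 at 4.35 and H2-DMa at 1.93 stand above the line of 0, and H2-DMb1 at -2.20, H2-Aa, H2-Eb1 and H2-Ea-ps at -1.67 below it.

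The genes whose pattern over the 32 libraries was most like that of Cd74, after removing the mean of each strain and sex, were H2-Ea-ps (Pearson r = 0.869), the Langerhans cell lectin Cd207 (r = 0.843), Rgs18 (r = 0.818), the phagocyte oxidase subunit Ncf4 (r = 0.813) and Shtn1 (r = 0.812). Among the 7 themselves, H2-Aa was at r = 0.907 with Cd74, H2-Eb1 at 0.780, H2-Ab1 at 0.640, Ciita at 0.377, H2-DMb1 at 0.206 and H2-DMa at -0.178. Those most like H2-Ab1 were Qpct (r = 0.781), Zcwpw1 (r = 0.741), the leukocyte lysosomal protein Laptm5 (r = 0.738), the chemokine receptor Ccr2 (r = 0.697) and Cd72 (r = 0.693). These are descriptions with no p, over libraries that also differed in their macrophage transcripts. Means over the LG/J and the SM/J libraries were 0.858 and 1.80 CPM for Cd207, 0.946 and 5.96 CPM for Ccr2, and 49.7 and 47.2 CPM for Laptm5.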

How the data were processed

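RNA-seq libraries of 32 chondrocyte cultures were analysed from the authors' deposited tables, which hold a read count per gene, its CPM and its RPKM. Per the submitters' processing notes, STAR 2.0.4b, Subread (featureCounts 1.45) and GRCm38 were used; the strand setting, like the annotation, was not given in the sources used here. Deposited count columns were tested; the deposited CPM is the count scaled to the table's total and the deposited RPKM is that value per kilobase of the listed length. Gene symbols were matched for 40254 of 41388 genes, and the 1134 without a symbol held 0.109% of all counts. No column was left unmapped.

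Counts were fitted with edgeR 4.0.16 in R 4.3.3 (TMM, filterByExpr, robust quasi-likelihood test, 4 group means, Benjamini-Hochberg over 16136 genes); the macrophage score (prior count 2) entered as a covariate, over both strains or by strain. DESeq2 1.42.0, limma 3.58.1 and the other settings were alternatives. Permutation tests used 100000 resamples. The scripts were tested on simulated data. Copies were aligned with BLAST 2.17.0. Promoter letters are RefSeq's. The 7 genes, the gene lists and the libraries left out as alternatives were chosen with earlier results of these data known. The naming rule was all 7 genes, up to 3 called genes per list with the smallest p (more where a role is set beside a member; some genes of the lists are not reported here), and the 5 genes most like Cd74 and H2-Ab1. Library totals of 15840330 to 25571598 set the precision; a count of 0 was read as allowing 3 counts, for counting error only.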

Additional observations from a re-analysis of the deposited data

Results flagged for a closer look

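In groups of 8 libraries, 28 sets of values of the 7 genes were examined for a library far from the others, and 6 were found, where chance gives about 1 in 20. LG/J male 6 accounts for 3. It held Cd74 at 81.2 CPM with the remaining LG/J males between 1.51 and 12.7 CPM, H2-Aa at 8.05 CPM with the remaining ones between 0 and 1.97 CPM, and H2-Eb1 at 3.35 CPM with the remaining ones between 0.0446 and 1.30 CPM. Its macrophage score, 3.70, was also the highest of the 32 libraries. H2-DMa at 80.3 CPM and H2-DMb1 at 7.61 CPM both peaked in LG/J female 2, with the remaining LG/J females between 21.4 and 41.7 CPM and between 1.65 and 3.38 CPM. That library had the lowest macrophage score, -1.83. H2-Ab1 reached 4.75 CPM in SM/J male 8, with the remaining SM/J males between 0.526 and 2.19 CPM, and the score of that library, 1.76, was the second highest in SM/J. What sets these libraries apart was not tested.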

How the results depend on the processing

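H2-DMa and H2-DMb1 kept direction and call in the strain comparison under every alternative, at 1.66 to 2.06 and -2.41 to -1.33, the last with both beta copies summed. Over the alternatives that kept all or fixed subsets of the libraries, 15 single-gene values gained a call and 31 lost one; when each library was left out in turn, 15 gained and 27 lost one. The cause was not tested.

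Signs turned only for values not called. With close pairs summed, Ciita was at 0.10 in males (-0.17 in the reported fit) and H2-DMb1 correlated with the score at -0.00256 in LG/J (0.044). Without LG/J male 6 and SM/J female 2, H2-Aa at equal score was 0.22 (-0.26), the slope of H2-DMb1 -0.0356 over both strains (0.09) and -0.21 in LG/J (0.10), that of H2-DMa -0.0253 in SM/J (0.02), and the correlations were -0.242 for H2-DMb1 in LG/J and -0.174 for H2-DMa in SM/J (0.088). Leaving out 1 library gave Ciita -0.65 to 0.0216 in males and -0.26 to 0.24 at equal score, H2-Aa at equal score -0.54 to 0.12 (above 0 without LG/J male 6 or SM/J female 5), the LG/J slope of H2-DMb1 -0.21 to 0.16, the SM/J slope of H2-DMa -0.0284 to 0.0448, and their correlations -0.242 to 0.231 and -0.180 to 0.257.

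Counts of the class II genes called moved as follows. Of 4 in females, 2 were left with no filter, with limma voom and without LG/J male 6 and SM/J female 2, and 2 to 4 without 1 library; the 2 called in males became 4 without those 2 libraries. Of 4 slopes, 2 were left without those 2 libraries; of 1 slope in LG/J, 0 with limma voom or without those 2, and 2 by library size only, with close pairs summed, without the 6 libraries of both sexes or with LG/J female 1 and male 1 left out (0 to 3 without 1 library, 0 without LG/J male 6). Of 3 slopes in SM/J, 1 was left without those 2 (1 to 4 without 1 library, 1 without SM/J female 2). Correlated genes fell to 0 in LG/J, against 2, and 2 in SM/J, against 4, without those 2 (LG/J 0 to 3 without 1 library, 0 without LG/J male 6).

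Over all genes, the 1 interaction call became 0 by library size only, with no filter, without the 6 libraries, with close pairs summed or without the 2 top libraries, 50 with DESeq2 and 256 with limma voom (0 to 23 without 1 library). Sex calls, 558, became 123 with no filter, 1029 with DESeq2, 1734 with limma voom, 922 without LG/J female 1 and male 1 and 31 with close pairs summed (314 to 963). In LG/J, 8 became 4 by library size only or without the 2 top libraries, 20 with DESeq2, 14 with limma voom and 3 with close pairs summed (4 to 9). In SM/J, 929 became 388 with no filter, 2422 with limma voom, 1402 without LG/J female 1 and male 1, 490 without the 6 libraries and 184 with close pairs summed (532 to 1410). Male strain calls, 3600, became 5636 with limma voom. Slope calls, 353, became 549 with limma voom and 163 without the 2 top libraries, 252 in LG/J became 57 without them (59 to 272, the lowest without LG/J male 6), and 256 in SM/J became 436 and 111 (113 to 276, the lowest without SM/J female 2).

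The library numbers recur in the 4 groups, and most same-numbered libraries were not each other's best match. Of 48 same-numbered pairs, 30 correlated above 0.1 (-0.447 to 0.844) and for 6 of them the own number was the best match. The highest value, 0.844, was for LG/J female 1 and LG/J male 1, the libraries with high Il6 and low Acan. A correlation check cannot decide whether other numbers pair libraries. With the number as a replicate block, 2 slopes were called over both strains, 0 in LG/J and 1 in SM/J. The block moved interaction calls to 0, sex calls to 1052 and sex calls in SM/J to 1433. The slope of H2-DMa in SM/J was -0.14 and that of H2-DMb1 -0.15 under the block. Depth limits Ciita, H2-Aa and H2-Eb1, which had under 10 reads in 13, 14 and 15 of 32 libraries.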
